A study of Mus musculus with 24 samples.

Results

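The genes described here encode the subunits of the hypoxia-inducible factors (HIF) and the enzymes that pass oxygen levels on to them. The 10 genes were taken from a list by their RefSeq symbols, out of 21883 protein-coding genes on chromosomes 1 to 19, X and Y of mouse build mm10. They are Hif1a, Epas1 and Hif3a for the alpha subunits, Arnt and Arnt2 for the beta subunits, Vhl, the prolyl hydroxylase genes Egln1, Egln2 and Egln3, and the asparaginyl hydroxylase gene Hif1an. The rule that chose them used no measured value, but it was set with earlier results of these data known.

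A HIF is a pair of an alpha subunit, which is made and destroyed continuously in oxygenated cells, and a stable beta subunit of the ARNT family. With oxygen, prolyl hydroxylases (PHD enzymes, from the Egln genes) modify the alpha subunit, the von Hippel-Lindau protein binds the modified form and the ubiquitin ligase built around it marks it for destruction. The asparaginyl hydroxylase FIH, from Hif1an, blocks the binding of coactivators, and when oxygen is short the pair accumulates and switches on target genes, among which are genes for some of these same hydroxylases.

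The cells were N1E115, a mouse neuroblastoma line that the labels describe as NOS1+, kept for 3 days at 20% oxygen (the control level) or at 4% oxygen. Chromatin immunoprecipitation and sequencing (ChIP-seq) covered 5 histone marks with 2 libraries per mark and oxygen level, 20 in all. Separate cultures are not mentioned in the labels, and p-values may therefore measure technical spread only. H3K4me3 marks active starts, H3K27ac active starts and enhancers, H3K4me1 enhancers, H3K36me3 transcribed gene bodies, and H3K27me3 repression by Polycomb. The deposited values were peaks or islands called library by library, and the measure used below is the length in base pairs (bp) that they cover over a gene record and 10 kb on either side. The 2 oxygen levels are called non-overlapping at a gene when both libraries of one level lie above both of the other by at least 200 bp, which is a description and not a test. Shares of all genes set beside such counts of covered length are over all 21883 genes, including those without the mark. Genes without the mark cannot be non-overlapping, so these shares run low beside genes that carry it. Replicates 1 and 2 are named in that order throughout.

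Facts of the whole libraries bear on all members. The lists held between 26489 and 50496 peaks for H3K4me3, between 60786 and 94286 for H3K27ac and between 99749 and 126503 for H3K4me1. H3K36me3 islands held 13350093 to 25048785 reads per library and H3K27me3 islands 8479517 to 12228541. H3K4me1 peaks covered 105.89 and 81.75 Mb at 20% oxygen against 61.03 and 63.79 Mb at 4%. Its log2 ratio of 4% over 20% had a median of -0.68 over 11095 genes, so that H3K4me1 values are read against that shift. In replicate 1 the 20% and 4% libraries ran on different flow cells for every mark except H3K4me1, per the file headers, and there flow cell and oxygen cannot be told apart. In replicate 2 all libraries shared a flow cell, on which no replicate 1 library ran. Lanes still differed between 20% and 4% oxygen for H3K4me1, with lanes 1 and 2 in replicate 1 and lanes 7 and 6 in replicate 2. For H3K4me3 they differed in replicate 2 (lanes 7 and 6). In these cases lane and oxygen cannot be told apart. As a check of the cell type, 13 of 13 noradrenergic neuroblastoma markers carried at least 200 bp of H3K4me3 in all 4 libraries, against 2 of 7 glial, 2 of 6 immune, 1 of 5 endothelial and 3 of 6 liver and muscle markers. No mark was compared in amount between genes, since covered length does not measure occupancy.

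RefSeq's promoter table, on the GRCm38.p6 assembly that mm10 is based on, held 9 of the 10 genes. Epas1 had no entry. Those of the 4 genes whose H3K27ac did not overlap between oxygen levels are shown, from 250 bases before the start to 50 after it, in the direction of transcription. Capitals mark matches to the core that HIF binds, searched as ACGTG and as GCGTG on both strands, so that CACGC is GCGTG on the other strand and a CACGTG counts ACGTG on both. The windows are chr12:54203825-54204124 (minus strand) for Egln3, chr8:124949205-124949504 (minus strand) for Egln1, chr7:17062378-17062677 (minus strand) for Hif3a and chr6:113623744-113624043 (plus strand) for Vhl.
Egln3: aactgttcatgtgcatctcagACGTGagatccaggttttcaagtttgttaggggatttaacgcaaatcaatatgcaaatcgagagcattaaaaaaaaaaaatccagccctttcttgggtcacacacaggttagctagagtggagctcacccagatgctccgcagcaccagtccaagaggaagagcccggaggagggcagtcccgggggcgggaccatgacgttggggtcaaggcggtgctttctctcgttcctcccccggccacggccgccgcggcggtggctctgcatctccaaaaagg
Egln1: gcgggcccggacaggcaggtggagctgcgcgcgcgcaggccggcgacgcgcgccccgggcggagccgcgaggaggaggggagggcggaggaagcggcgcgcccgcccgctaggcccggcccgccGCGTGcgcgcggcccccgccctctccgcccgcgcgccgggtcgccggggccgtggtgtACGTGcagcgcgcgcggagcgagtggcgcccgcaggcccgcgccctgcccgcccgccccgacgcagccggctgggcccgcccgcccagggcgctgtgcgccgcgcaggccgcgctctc
Hif3a: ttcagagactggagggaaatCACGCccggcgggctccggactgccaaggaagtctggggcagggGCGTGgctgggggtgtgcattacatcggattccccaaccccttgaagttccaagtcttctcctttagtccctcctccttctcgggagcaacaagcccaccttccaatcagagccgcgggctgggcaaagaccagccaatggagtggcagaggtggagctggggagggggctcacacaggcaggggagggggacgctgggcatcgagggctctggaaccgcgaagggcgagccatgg
Vhl: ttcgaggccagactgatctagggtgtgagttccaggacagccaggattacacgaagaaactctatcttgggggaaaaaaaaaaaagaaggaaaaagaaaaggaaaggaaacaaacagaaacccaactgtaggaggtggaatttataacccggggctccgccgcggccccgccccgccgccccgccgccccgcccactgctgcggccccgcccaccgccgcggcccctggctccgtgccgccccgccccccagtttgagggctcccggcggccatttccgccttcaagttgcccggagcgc
Egln3 had 1 match, an ACGTG whose first base lies at -229 from the start. Egln1 had a GCGTG at -126 and an ACGTG at -68. Hif3a had 2 matches to GCGTG, at -230 (other strand) and at -186, and no ACGTG. Vhl had no match in this window. Of the 9 genes in the table, 6 had a match, among them Hif1a with 3, Arnt with 1 and Egln2 with 6 at its first start. For scale, 19.6% of the 32851 promoters of this length in the table held ACGTG, 32.4% held GCGTG and 43.8% held either. These shares count promoters, while the 6 of 9 counts genes. Both cores contain CG, and the promoters of the 9 genes held 14 to 60 CG dinucleotides, except 4 at the second start of Egln2. The median over all promoters was 7, so the shares are no like comparison. A match is a string of letters and not a measured binding site.

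H3K27ac was longer in both 4% libraries than in both 20% libraries at 4 of the 10 genes, Hif3a, Vhl, Egln1 and Egln3, against 9.82% of all protein-coding genes. It was shorter at 0 of the 10, against 2.35% of all genes. The 9.82% is 2149 of 21883 genes, and only 12642 of all genes had enough H3K27ac to be tested, beside 9 of the 10. The median log2 ratio of the 9 genes with enough H3K27ac to be tested was 0.43, beside 0.10 over 12642 genes. In limma's test with Benjamini-Hochberg adjustment over all genes none of the 9 passed, as no gene did (0 of 12642, 0%). At an unadjusted p under 0.05 there were 2 of these 9 (Hif3a and Egln1) and 651 of all genes. With the replicate number as a block in limma, 194 genes passed and none of the 9 did. An exact permutation test of 2 against 2 libraries cannot give a p below 0.333.

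**Figure D1:**
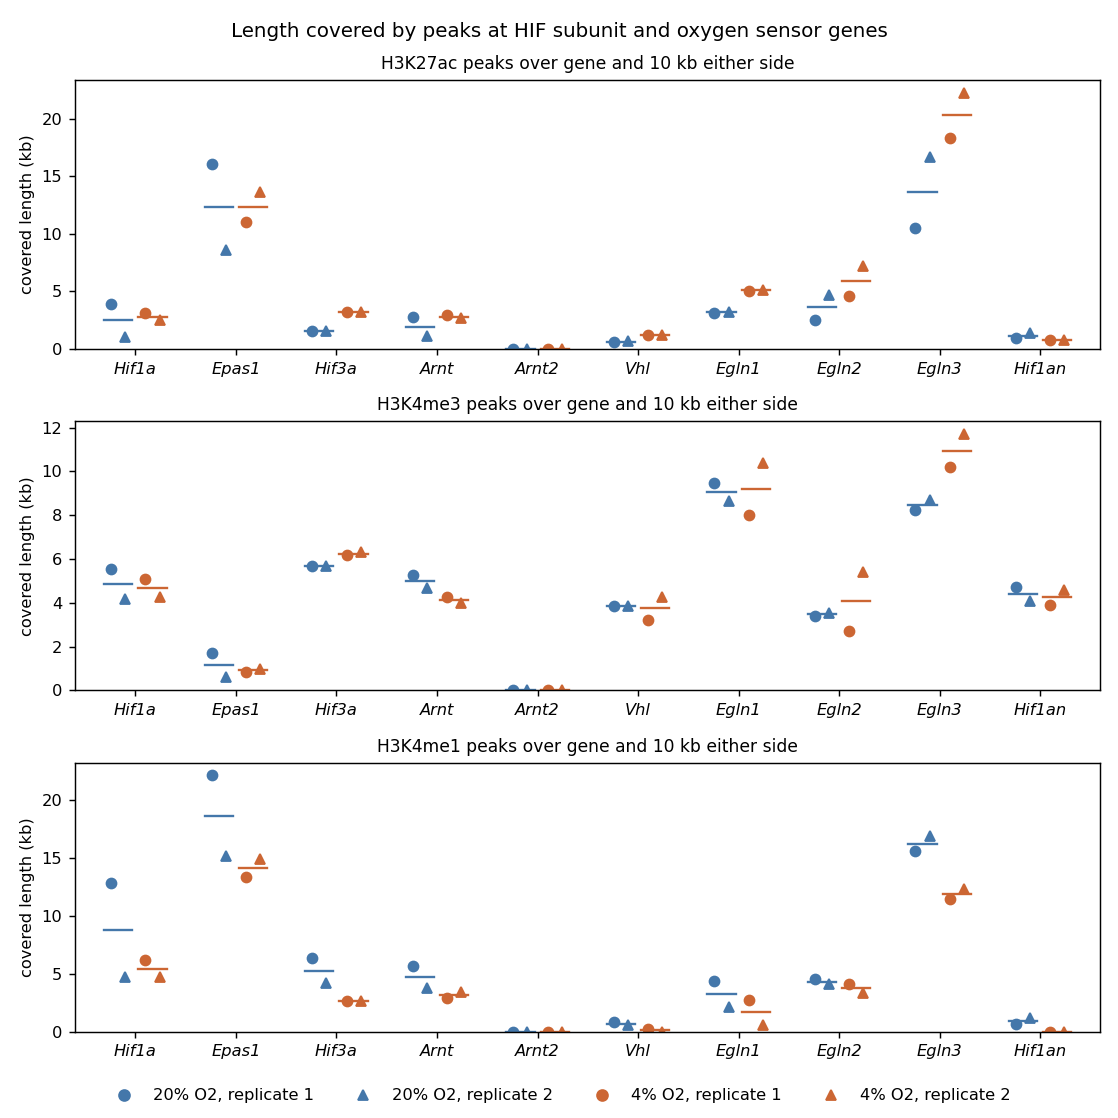
Length covered by H3K27ac, H3K4me3 and H3K4me1 peaks (kb, vertical axis) over each of the 10 genes with 10 kb either side. Blue symbols are the 20% oxygen libraries and orange the 4% libraries, circles replicate 1 and triangles replicate 2, and each bar is the mean of 2 libraries. H3K27ac at Hif3a, Vhl, Egln1 and Egln3 lies higher in both 4% libraries, and Arnt2 is at 0 in all 3 panels.

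Among the alpha subunits, Hif1a, which encodes the widely expressed HIF-1 alpha, carried marks of an active, transcribed gene at both oxygen levels. Its record lies at chr12:73901324-73947554 on the plus strand. H3K4me3 peaks covered 5542 and 4179 bp at 20% and 5099 and 4263 bp at 4% oxygen. Its main H3K4me3 region, chr12:73906888-73910554, spans the RefSeq start and covered between 2944 and 3667 bp in every library. A separate region at chr12:73901176-73902422, at the upstream end of the gene record, held 1159 and 603 bp at 20% and 1247 and 381 bp at 4%, so that replicate 1 was longer than replicate 2 at both levels. H3K27ac covered 3878 and 1080 bp at 20% and 3122 and 2501 bp at 4%. The 4% values lay between the 20% values, and the 20% libraries differed more from each other than the levels did. The only H3K27ac region present in all 4 libraries, chr12:73907982-73909695 just inside the start, covered 1236 and 1080 bp at 20% against 1328 and 1707 bp at 4%. H3K4me1 covered 12819 and 4689 bp at 20% and 6182 and 4720 bp at 4%, with the first library far above the other 3. H3K36me3 ran as 1 region, chr12:73908801-73952800, from inside the gene to beyond its end, of which 43200, 41200, 43000 and 40200 bp were covered. Polycomb's H3K27me3 was absent from the gene record, and 1954 bp at the edge of the window appeared in replicate 1 at 4%. The region it belongs to, chr12:73955601-73963000, runs past the window. Beyond the window edge it also held 2800 bp in replicate 1 at 20%.

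Epas1 encodes HIF-2 alpha, the alpha subunit known for its part in sympathetic and chromaffin cells. Its record at chr17:86753864-86833410 had enhancer marks inside it and no H3K4me3 at its ends. None of the 5 marks covered a base within 1000 bp of either end of the record in any library. The H3K4me3 common to all 4 libraries was 1 region inside the gene, chr17:86820095-86821550, with 1295 and 595 bp at 20% and 837 and 997 bp at 4%. H3K27ac covered 16048 and 8576 bp at 20% and 11082 and 13636 bp at 4%, within the record throughout. It was longer at 20% in replicate 1 and longer at 4% in replicate 2, and the log2 ratio was 0.06 with a standard error (SE) of 0.35. H3K4me1 covered 22113 and 15189 bp at 20% and 13321 and 14872 bp at 4%. Both 4% values were the lower ones, with a smallest gap of -317 bp, which is less than the distance between the 20% libraries. H3K36me3 islands were at 0 bp in all 4 libraries. H3K27me3 covered 7810 and 3000 bp at 20% and 4410 and 0 bp at 4%. Near the end of the record, chr17:86824201-86828000 held an H3K27me3 island in both 20% libraries (46 and 69 reads) and in neither 4% library. It was the only region of this kind among the 15 H3K27me3 regions of the 10 genes, and 2.92% of all 26031 H3K27me3 regions had the same pattern. The reverse pattern was at 0 of the 15, against 1.92% of all.

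Hif3a encodes HIF-3 alpha, which has short forms that act as inhibitors of the other HIFs and is itself known as a hypoxia-responsive gene. Its record is chr7:17030993-17062427 on the minus strand, and its window also takes in the start of Ppp5c, as the RefSeq promoter table places it. H3K27ac covered 1574 and 1557 bp of the window at 20% oxygen and 3242 and 3171 bp at 4%. The 4% libraries were 1597 bp or more above the 20% libraries, and the means were 1566 ± 12 bp at 20% and 3207 ± 50.2 bp at 4% (SD, n = 2 each). In regions overlapping Ppp5c it covered 1574 and 1289 bp at 20% and 1583 and 1494 bp at 4%. In the remaining regions, on the Hif3a side, it covered 0 and 268 bp at 20% against 1659 and 1677 bp at 4%. Within 1000 bp of the start, however, it was 0 bp in both 20% libraries and 1031 and 0 bp at 4%, so that the second 4% library had its peaks farther inside the gene. The difference therefore lay on the Hif3a side of the window, while the levels overlapped over Ppp5c. The log2 ratio over the whole window was 0.71 (SE 0.16), with an unadjusted p of 0.00594 and an adjusted p of 0.872 in limma.

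A region of Hif3a at chr7:17060295-17061006, centred 1777 bp inside the gene, had H3K27ac peaks in both 4% libraries (628 and 478 bp) and in neither 20% library. Such 4%-only regions numbered 2 among the 63 H3K27ac regions of the 10 genes, the other being at Vhl, and made up 2.59% of all 97912. The reverse pattern occurred at 0 of the 63, against 1.55% of all. H3K4me3 over the Hif3a start, in chr7:17060273-17063359, covered 2436 and 2463 bp at 20% and 3071 and 3042 bp at 4%. The highest peak score there, the authors' own value read as -log10 q, was 23.45 and 29.0 at 20% and 117.12 and 120.51 at 4%. Within their own lists these were peaks at the 28.9th and 58.0th percentiles at 20% and at the 55.0th and 77.2nd at 4%. Scores from different libraries depend on depth and were not tested. H3K4me3 over the whole window was 5678 and 5699 bp at 20% and 6168 and 6310 bp at 4%, with a log2 ratio of 0.11 (SE 0.17). That total takes in a region over Ppp5c that was shorter at 4%, with 2501 and 2636 bp against 2113 and 2324 bp. The remaining regions covered 3177 and 3063 bp at 20% and 4055 and 3986 bp at 4%.

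Other marks at Hif3a were thin. H3K4me1 covered 6366 and 4195 bp at 20% and 2624 and 2616 bp at 4%, shorter in both 4% libraries. Regions over Ppp5c made up 2725 and 2178 bp of this at 20% and 1977 and 1016 bp at 4%. The H3K4me1 log2 ratio of the whole window, -0.77, was close to the median of -0.68 over all genes. With each library centred on its own median the ratio was 0.01, where the median over all genes was 0.10. H3K36me3 over the Hif3a record was at 0 reads in both 20% libraries, with 1 island in each 4% library (52 and 66 reads) at different places, 2200 bp at chr7:17032601-17034800 and 2400 bp at chr7:17053601-17056000. An H3K27me3 island upstream, at chr7:17067001-17074000, was present in every library with 202, 258, 255 and 330 reads. Its read density per covered base had a log2 ratio of 0.50 (SE 0.13), with an unadjusted p of 0.00211 and an adjusted p of 0.362 in edgeR's quasi-likelihood test, in which 0 of 10177 regions (0%) passed, 961 had an unadjusted p under 0.05 and DESeq2 also called 0. With the replicate number as a block in edgeR, the adjusted p of this region was 4.21e-04. In that setting 795 of the 10177 regions passed as higher at 4% and 347 as lower. An island over the start itself appeared in 1 of the 20% libraries, with 2200 bp and 37 reads, and in no other library.

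**Figure D2:**
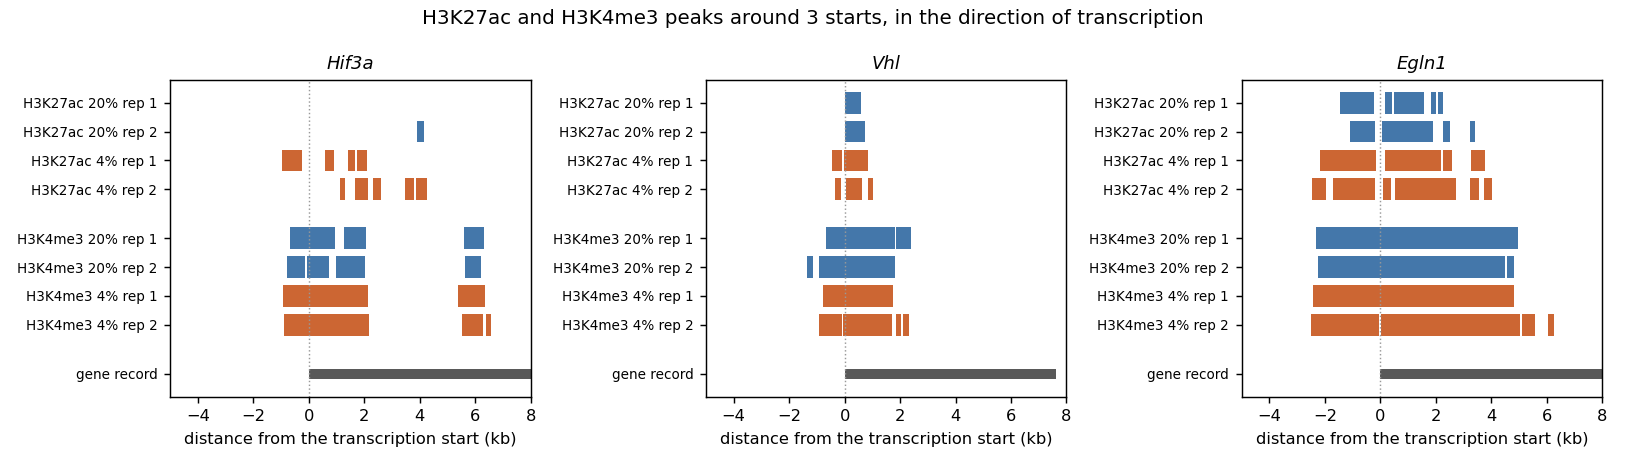
H3K27ac and H3K4me3 peaks around the starts of Hif3a, Vhl and Egln1, with 1 row per library (blue 20% oxygen, orange 4%). The horizontal axis is the distance from the transcription start in kb, in the direction of transcription, and the grey bar is the gene record. Around the Hif3a start and first part of the gene the 20% rows hold 0 and 268 bp of H3K27ac while both 4% rows hold several peaks, and the summed H3K27ac peaks of Vhl and Egln1 are longer in the 4% rows, while their H3K4me3 overlaps between levels.

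Of the beta subunits, Arnt carried active marks and Arnt2 H3K27me3 alone. Arnt encodes the common partner of the alpha subunits (HIF-1 beta) and lies at chr3:95434367-95497240 on the plus strand. Its H3K36me3 covered 95.81% and 92.31% of the record at 20% oxygen and 95.49% and 97.08% at 4%. H3K4me3 covered 5270 and 4683 bp at 20% and 4251 and 4000 bp at 4%. Arnt was the only one of the 10 genes with shorter H3K4me3 in both 4% libraries (1 of 10, against 4.8% of all genes), and its log2 ratio of -0.22 (SE 0.17) did not pass in limma (adjusted p = 1). With peaks limited to equal numbers per library, or to a score of 5 or more, the levels no longer met the rule. Within 1000 bp of the Arnt start H3K27ac went the other way, with 981 and 441 bp at 20% and 1552 and 1725 bp at 4%. Over the whole window H3K27ac was 2768 and 1128 bp against 2971 and 2648 bp, where the levels overlapped. Just past the start, chr3:95434942-95436188 had H3K4me1 in both 20% libraries (1247 and 481 bp) and in neither 4% library.

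Arnt2 encodes a beta subunit known from the brain and the neuroendocrine hypothalamus. Over its record at chr7:84246274-84411741 (minus strand) and the flanks, H3K4me3, H3K27ac, H3K4me1 and H3K36me3 were all at 0 bp in every library. H3K27me3 extended over 58527 and 146127 bp of the 185468-bp window at 20% and 50200 and 133327 bp at 4%. The long values were the replicate 2 libraries and the short ones the replicate 1 libraries, at both oxygen levels. Between levels the log2 ratio was -0.17 (SE 0.79, adjusted p = 1 in limma). Read density in its 3 regions shared by all libraries had log2 ratios between -0.13 and -0.07. Apart from an upstream island in 1 library at 4%, the regions lay in the gene and past its end, and H3K27me3 within 1000 bp of its start was 0 bp in all 4 libraries. Arnt2 was the only one of the 10 whose record was broadly covered by H3K27me3.

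**Figure D3:**
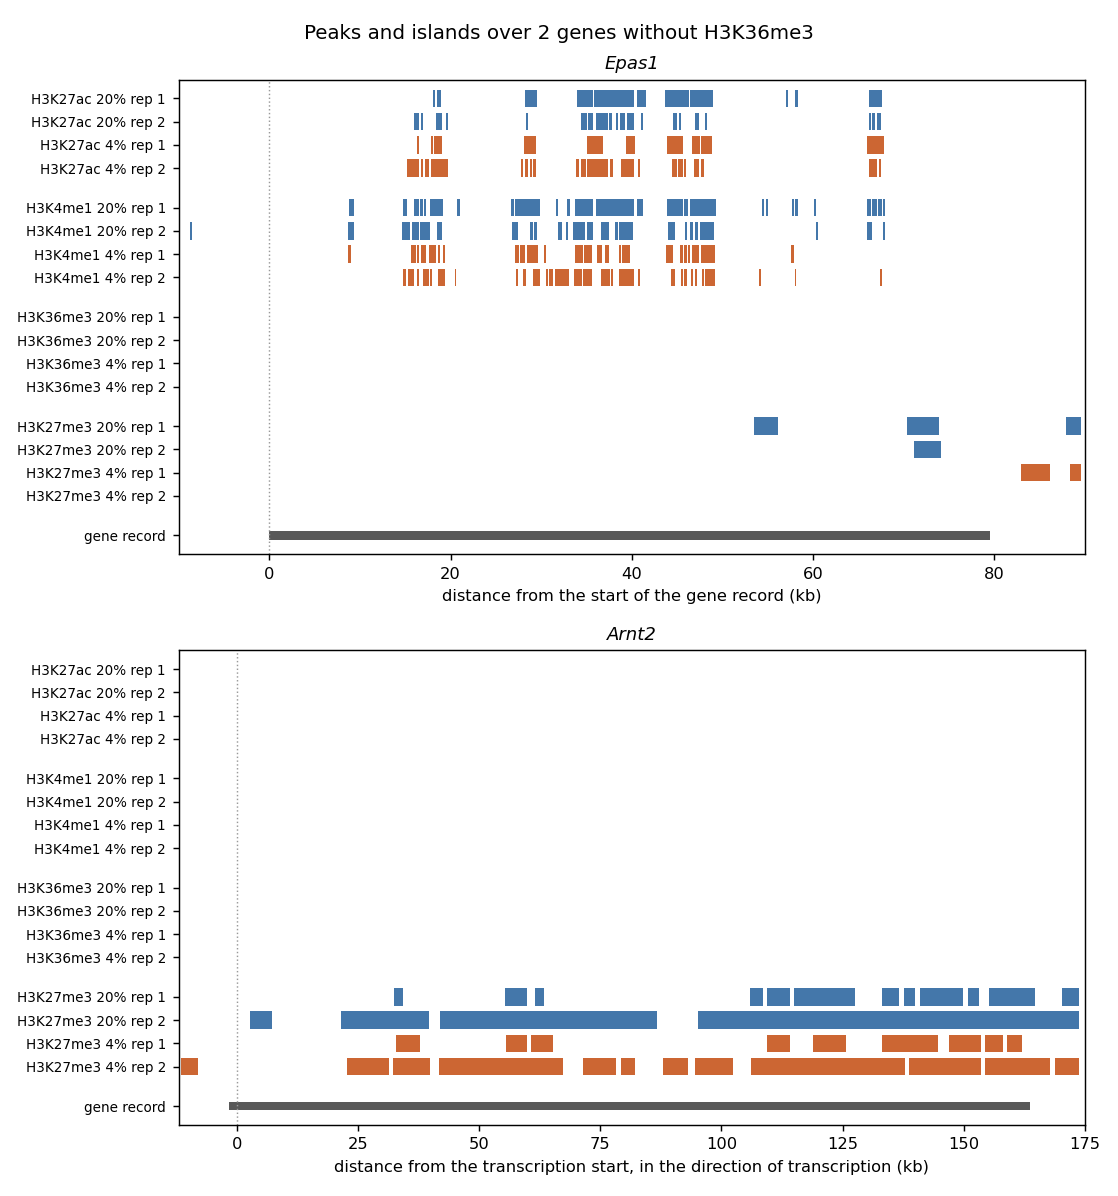
Peaks and islands over Epas1 (top) and Arnt2 (bottom), the 2 genes of the set with no H3K36me3, by distance in kb from the start of the gene record (Epas1) or from the transcription start (Arnt2). Rows are libraries, blue for 20% and orange for 4% oxygen, and the grey bar is the gene record. Epas1 carries H3K27ac and H3K4me1 inside the record and none at its ends, and Arnt2 carries only H3K27me3, longer in replicate 2 at both levels.

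Vhl encodes the substrate receptor of the ubiquitin ligase that removes hydroxylated HIF alpha, and lies at chr6:113623994-113631634 on the plus strand. Brk1 and Irak2 reach into its window. The H3K27ac length was 582 and 697 bp at 20% and 1201 and 1197 bp at 4% oxygen, of which 212 bp in the second 4% library lay over Irak2. Without that stretch both 4% libraries were still 288 bp or more above the 20% libraries. A peak upstream of the start, chr6:113623554-113623895, was the second 4%-only H3K27ac region, with 342 and 204 bp. Its scores of 6.59 and 9.41 were at the 23.3rd and 50.2nd percentiles of their lists. The log2 ratio of the window was 0.42 (SE 0.18), with an unadjusted p of 0.0599 and an adjusted p of 0.953 in limma. The main H3K4me3 region over the start, chr6:113623081-113625801, covered 2488 and 2721 bp at 20% and 2521 and 2570 bp at 4%, where the levels overlapped. H3K4me1 covered 803 and 559 bp at 20% and 221 and 0 bp at 4%.

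Among the partners of Vhl in the ligase, no H3K27ac length met the 200-bp rule. None of the 6 other ligase genes listed (Elob, Eloc, Cul2, Rbx1, Ube2d1 and Nedd8) was non-overlapping in H3K27ac in either direction, with a median log2 ratio of 0.10, equal to that of all genes tested. In H3K4me3, Ube2d1, which encodes a ubiquitin-conjugating enzyme, was shorter at 4%, with 3495 and 3223 bp against 2535 and 2690 bp. It was 1 of the 6, against 4.8% of all genes. Of the same 6, H3K36me3 was longer at 1 (Eloc), against 5.94% of all genes, and shorter at 3 (Ube2d1, Cul2 and Nedd8), against 12.8%. H3K4me1 was shorter at 3 (Elob, Eloc and Rbx1), against 36.2%. Among 13 genes for HIF stability and coactivators, H3K27ac was longer at 2, Usp33 (3877 and 3544 bp against 4206 and 5863 bp) and Siah2 (1330 and 2022 bp against 2311 and 2484 bp), and shorter at 0. That count is near the 9.82% of all genes. Siah2 encodes a ubiquitin ligase that acts on prolyl hydroxylases, and Usp33 a deubiquitinase.

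Egln1 encodes PHD2, the main prolyl hydroxylase that sets HIF-1 alpha levels with oxygen. Of the 10 genes it had the largest H3K27ac gap between the closest libraries of the 2 levels. By difference of means or by log2 ratio it did not rank first. Its record is chr8:124908587-124949254 on the minus strand, and Sprtn lies at the far edge of the window. The H3K27ac length was 3160 and 3190 bp at 20% and 5069 and 5163 bp at 4% oxygen. The levels were 1879 bp apart or more, with means of 3175 ± 21.2 bp at 20% and 5116 ± 66.5 bp at 4% (SD, n = 2 each). In regions that do not overlap Sprtn it covered 2942 and 3190 bp at 20% and 5038 and 5163 bp at 4%. Limma gave a log2 ratio of 0.55 (SE 0.19), with an unadjusted p of 0.0277 and an adjusted p of 0.931.

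The longer H3K27ac of Egln1 lay on both sides of the start. Upstream, chr8:124949418-124951733 covered 1229 and 908 bp at 20% and 2004 and 2022 bp at 4%. Inside the gene, chr8:124946519-124949179 covered 1713 and 2076 bp at 20% and 2355 and 2515 bp at 4%. The highest score of the upstream region was 50.82 and 35.1 at 20% and 99.62 and 77.1 at 4%. In that region H3K4me1 peaks at chr8:124950301-124951411 were present in both 20% libraries (809 and 695 bp) and in neither 4% library. H3K4me3 was 9466 and 8655 bp at 20% and 8017 and 10367 bp at 4%, and its levels overlapped. The H3K27ac difference thus came beside an H3K4me3 domain whose main region covered between 6976 and 7448 bp in every library. Over the 20 libraries, the genes whose covered shares were most like those of Egln1 by Euclidean distance were Ankrd16 (8.31 percentage points), Pcmt1 (8.88) and Cep76 (9.87). Their H3K27ac, which is part of that distance, was also longer in both 4% libraries. Pcmt1 had 4657 and 4629 bp at 20% and 5152 and 5118 bp at 4%. Cep76 had 2692 and 3018 bp against 3431 and 4500 bp. At Ankrd16, with 2233 and 1985 bp against 2285 and 2293 bp, the gap was too small for the 200-bp rule.

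Egln2 encodes PHD1 and lies at chr7:27158658-27166802 on the minus strand, between Rab4b and Cyp2t4. The H3K27ac length was 2515 and 4698 bp at 20% and 4570 and 7231 bp at 4% oxygen. Within each replicate number the 4% library was the longer one, by 2055 and 2533 bp, but the levels overlapped. Limma gave a log2 ratio of 0.60 (SE 0.33) and an adjusted p of 0.984. H3K4me3 was 3413 and 3516 bp at 20% and 2726 and 5410 bp at 4%, shorter at 4% in replicate 1 and longer in replicate 2. H3K4me1 was 4543 and 4080 bp against 4161 and 3367 bp, also overlapping.

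Egln3 encodes PHD3, the prolyl hydroxylase known as a strong HIF target, and had longer H3K4me3, H3K27ac and H3K36me3 in both 4% libraries. Its record is chr12:54178981-54203874 on the minus strand, with no other protein-coding gene in the window. The H3K27ac length was 10507 and 16716 bp at 20% and 18354 and 22297 bp at 4% oxygen. The gap of 1638 bp between levels was smaller than the spread within either level. The mean was 13612 ± 4390 bp at 20% and 20326 ± 2788 bp at 4% (SD, n = 2 each), and limma gave a log2 ratio of 0.57 (SE 0.31, adjusted p = 0.981). Without the first 20% library the log2 ratio was 0.26.

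The H3K27ac difference at Egln3 was spread over 3 regions, the longest of them well inside the gene. Within 1000 bp of the start H3K27ac was 1014 and 1753 bp at 20% and 1845 and 1821 bp at 4%, 68 bp apart at the closest. From chr12:54203968 to 54205338, upstream of the start, it covered 222 and 894 bp at 20% and 1371 and 1332 bp at 4%. From chr12:54200804 to 54203825, directly inside the gene, it covered 1324 and 2147 bp at 20% and 2861 and 2794 bp at 4%. From chr12:54192190 to 54200535, centred 7512 bp inside the gene, it covered 3114 and 5839 bp at 20% and 7033 and 8165 bp at 4%. The levels did not overlap in any of these 3 regions. In the next region, chr12:54185062-54192128, it covered 5847 and 6888 bp at 20% and 6690 and 6973 bp at 4%, and the levels overlapped. The first 20% library had scores of 6.10 and 7.01 in the 2 regions nearest the start, where the other libraries reached 28.11 to 74.09.

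H3K4me3 around the Egln3 start followed the same order. Over the window it covered 8246 and 8708 bp at 20% and 10196 and 11707 bp at 4%. The region over the start, chr12:54197301-54205344, covered 5222 and 6207 bp at 20% and 7267 and 7937 bp at 4%. Within 1000 bp of the start H3K4me3 was 2001 and 1935 bp at 20% and 2001 and 1900 bp at 4%, which is close to the full 2001 bp and leaves little room for a longer value. In the second 20% library the peaks of this region were split but reached 6074 bp inside the gene, about as far as the 6066 bp of the first 4% library. Of the 10 genes, 2 had longer H3K4me3 in both 4% libraries (Hif3a and Egln3), against 1.03% of all genes. None of the 9 tested passed in limma, where 1 of 14458 genes (0.00692%) did, and none had an unadjusted p under 0.05, beside 261 of all genes. Of the 36 H3K4me3 regions in the 10 windows, none was present in both libraries of one level only, against 0.482% (4% only) and 0.841% (20% only) of all regions. The Egln3 log2 ratio was 0.33 (SE 0.18), with an unadjusted p of 0.0581.

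H3K4me1 at Egln3 was shorter at 4%, with 15628 and 16848 bp at 20% and 11428 and 12354 bp at 4%. Near the start, 3 small regions centred between 1521 and 3015 bp inside the gene had H3K4me1 in both 20% libraries and in neither 4% library, in the stretch where H3K27ac and H3K4me3 were longer at 4%. The log2 ratio of the window, -0.42 (SE 0.28), was nearer to 0 than the median of all genes. With each library centred on its own median it was 0.37, where the median over all genes was 0.10. Across the 10 genes H3K4me1 was shorter in both 4% libraries at 6 (Epas1, Hif3a, Arnt, Vhl, Egln3 and Hif1an), against 36.2% of all genes, and longer at 0, against 0.0777%. The 36.2% is 7930 of 21883 genes, and only 11095 of all genes had enough H3K4me1 to be tested. With H3K4me1 peaks at 9 of the 10, nothing is read from the count of 6. The median log2 ratio of the 7 tested was -0.44. None passed in limma, nor did any other gene (0 of 11095, 0%), although 3578 genes and 0 of the 7 had an unadjusted p under 0.05. With the replicate number as a block in limma, 3242 genes passed and none of the 7 did. Of 94 H3K4me1 regions in the 10 windows, 10 were present in both 20% libraries only and 1 in both 4% libraries only, against 6.22% and 0.807% of all regions.

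**Figure D4:**
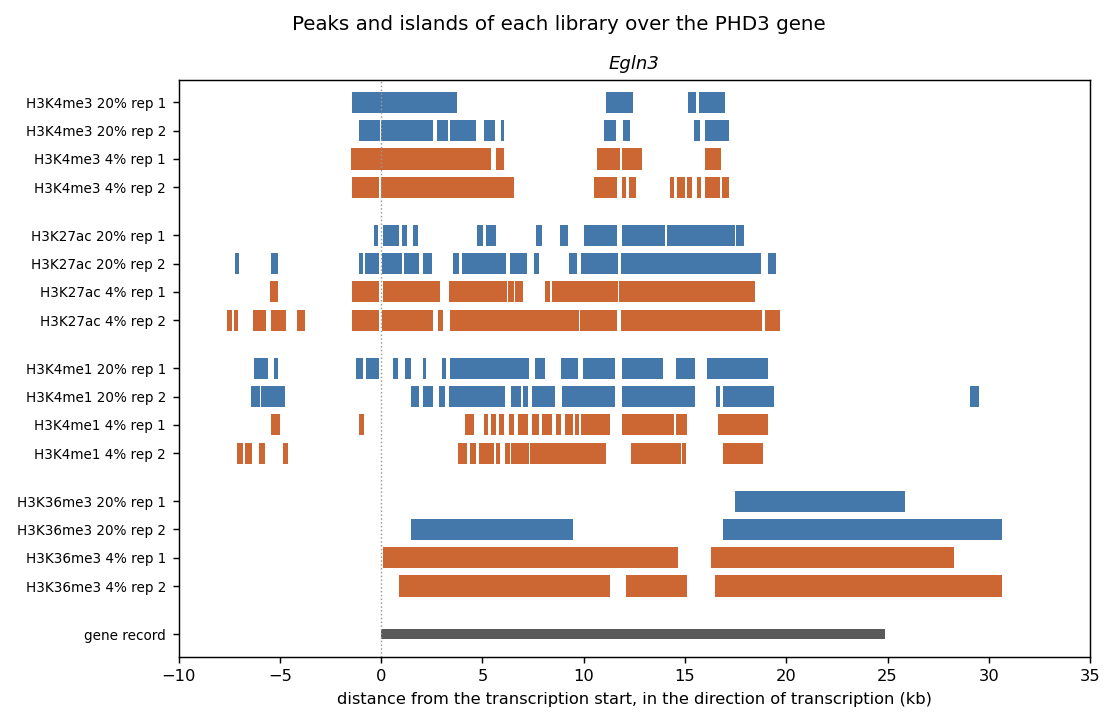
Peaks and islands of 4 marks over Egln3, with 1 row per library (blue 20% oxygen, orange 4%) and the horizontal axis in kb from the transcription start, in the direction of transcription. The grey bar is the gene record. H3K4me3 and H3K27ac fill more of the first part of the gene in the 4% rows, where the 20% rows have more gaps, and H3K36me3 spans most of the first 15000 bp in both 4% rows, 8000 bp of it in the second 20% row and none in the first.

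H3K36me3 over Egln3 showed a wide spread within the 20% level. It covered 29.81% and 64.35% of the record at 20% oxygen and 93.28% and 87.65% at 4%. The region nearer the start, chr12:54188801-54203800, held 0 and 229 island reads at 20% and 860 and 711 at 4%. The region toward the end of the gene, chr12:54173201-54187600, had islands in every library, with 537, 666, 915 and 991 reads. Its read density per covered base had a log2 ratio of 0.56 (SE 0.16), with an unadjusted p of 0.00595 and an adjusted p of 0.470 in edgeR's quasi-likelihood test. Without the second 20% library the log2 ratio was 0.83, and without the first it was 0.33. With the replicate number as a block in edgeR it was 0.58, with an adjusted p of 2.59e-06. In that setting 631 of all 10858 regions passed as higher at 4% and 532 as lower. Without the block no region of all 10858 passed in edgeR (0%, with 965 at an unadjusted p under 0.05), while DESeq2 called 2.

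Scaled to island reads per kb of gene record per 1000000 island reads, H3K36me3 at Egln3 was 0.76 and 1.85 at 20% and 3.91 and 3.40 at 4%. At Egln1 it was 3.01 and 2.86 at 20% and 3.81 and 3.58 at 4%. On this scale Arnt, Vhl, Egln1, Egln2, Egln3 and Hif3a were higher in both 4% libraries, 6 of the 10 genes, and 0 were lower. Of the 11227 genes with a mean of at least 20 reads 16.1% were higher and 19.9% lower. Hif3a passed that filter only through its 4% libraries and so had to differ, and nothing is read from the count. The gaps of Egln2 (1.39 and 1.31 against 2.25 and 1.41) and Arnt (3.27 and 2.91 against 3.50 and 3.41) were small. Of the genes past the filter the other 2, Hif1a (3.84 and 2.61 against 3.80 and 2.94) and Hif1an (2.24 and 2.21 against 2.26 and 2.01), overlapped. Of the 16 H3K36me3 regions in the 10 windows, none was present in both libraries of one level only, against 1.01% (4% only) and 2.68% (20% only) of all regions. In edgeR 0 of the 11227 genes (0%) passed, and 665 had an unadjusted p under 0.05. There Egln3 had a log2 ratio of 1.5 (SE 0.50, adjusted p = 0.843) and Egln1 one of 0.34 (SE 0.09, adjusted p = 0.778). DESeq2 called 2.17% of genes higher and 3.78% lower, and with it the adjusted p was 0.0342 for Egln3 and 4.74e-04 for Egln1. In covered length, H3K36me3 was longer in both 4% libraries at 2 of the 10 genes, Hif3a and Egln3, against 5.94% of all genes. It was shorter at 0, against 12.8%. At Hif3a the longer value came from 1 island in each 4% library (2200 and 2400 bp), at different places. The region over Ppp5c, which crosses the window edge, was shorter at 4%, with 24200 and 25000 bp at 20% against 22800 and 22800 bp. None of the 8 tested passed in limma, as no gene did (0 of 13231, 0%, with 840 genes and 0 of the 8 at an unadjusted p under 0.05).

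**Figure D5:**
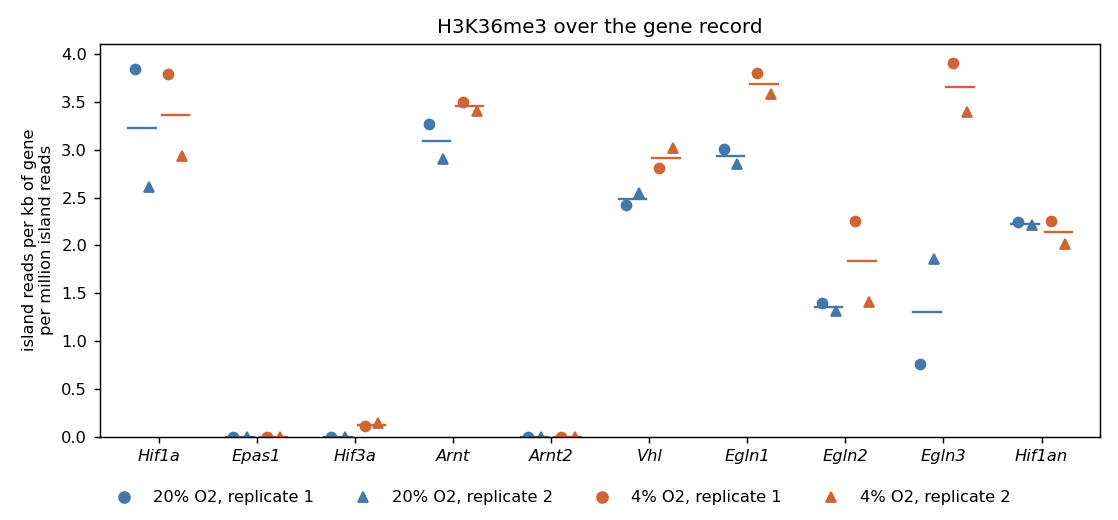
H3K36me3 island reads per kb of gene record per 1000000 island reads (vertical axis) for the 10 genes. Symbols are libraries, blue for 20% and orange for 4% oxygen, circles for replicate 1 and triangles for replicate 2, and bars are means of 2 libraries. Egln3 lies at 0.76 and 1.85 at 20% and at 3.91 and 3.40 at 4%, and Epas1 and Arnt2 are at 0.

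Hif1an encodes FIH, and lies at chr19:44562854-44576274 on the plus strand, downstream of Ndufb8. Its H3K27ac was not longer at 4%. The H3K27ac length was 924 and 1410 bp at 20% and 796 and 751 bp at 4% oxygen, with a smallest gap of -128 bp, under the 200 bp asked for. Most of this length lay over Ndufb8, and the region at the Hif1an start, chr19:44562855-44563202, covered 239 and 325 bp at 20% and 224 and 212 bp at 4%. The log2 ratio was -0.28 (SE 0.20, adjusted p = 0.997 in limma). H3K4me3 was 4716 and 4081 bp at 20% and 3912 and 4578 bp at 4%, overlapping. H3K4me1 was 665 and 1223 bp at 20% and 0 bp in both 4% libraries. An H3K27me3 island upstream of the start, chr19:44556601-44562400, held 105 and 138 reads at 20% and 168 and 172 at 4%, with a log2 density ratio of 0.30 (SE 0.14, adjusted p = 0.535 in edgeR).

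H3K27me3 was at 0 bp over the windows of Arnt, Vhl, Egln1, Egln2 and Egln3 in all 4 libraries. The other 5 had some, and none of the 10 was non-overlapping between levels, against 7.99% of all genes longer and 1.8% shorter at 4%. These shares are over all 21883 genes, and only 7472 had enough H3K27me3 to be tested. In island reads over the gene record, 1 of the 10 genes was lower in both 4% libraries, Epas1 with 85 and 69 reads against 0 and 0, and 0 were higher. Of the 4180 genes with a mean of at least 20 reads 19.6% were lower and 17.6% higher, but Epas1 passed that filter only through its 20% libraries, and the shares are no comparison for it. None of the 4 tested passed in limma, as no gene did (0 of 7472, 0%, with 532 genes and 0 of the 4 at an unadjusted p under 0.05). At the starts, at least 200 bp within 1000 bp of a start (for Epas1, of either end of the record, since its start was not placed) were covered in all 4 libraries at 8 of the 10 genes for H3K4me3, 7 for H3K27ac, 1 for H3K4me1, 2 for H3K36me3 and 0 for H3K27me3. The 2 genes without H3K4me3 there were Epas1 and Arnt2, the same 2 that had no H3K36me3.

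Genes downstream of the HIFs gave a point of comparison. In a list of 35 HIF target genes, which holds none of the 10, H3K27ac was longer in both 4% libraries at 20, against 9.82% of all genes, and shorter at 1, against 2.35%. Its median log2 ratio was 0.37, beside 0.10 over all genes. The list was chosen with earlier results of these data known, so its count is not independent support. At 33 of the 35, all 4 libraries held at least 200 bp of H3K27ac, while 12642 of all 21883 genes had enough to be tested. Slc2a1, the glucose transporter GLUT1, had 7620 and 7412 bp at 20% and 12206 and 16746 bp at 4%. Adm, for the peptide adrenomedullin, had 1419 and 887 bp against 6033 and 5088 bp, and Ankrd37 had 2463 and 1937 bp against 5995 and 5431 bp. The gene with shorter H3K27ac was Car9, a carbonic anhydrase, with 310 and 229 bp at 20% and 0 bp in both 4% libraries. Among 18 other oxygenases that use 2-oxoglutarate, the cofactor of the prolyl hydroxylases, it was longer at 3, Kdm2a, Alkbh5 and Kdm6b, and shorter at 0, beside the same shares of all genes. Of 13 relatives of the HIF subunits with bHLH-PAS domains or as their coactivators, H3K27ac was longer at 1, against 9.82% of all genes. This was Ncoa3, a coactivator (10473 and 12541 bp against 15216 and 18587 bp). It was shorter at 1, against 2.35%, which was Npas2, a clock factor (19536 and 14829 bp against 14140 and 14560 bp). Nothing is read from these counts. None of the genes of these lists passed in limma for any of the 5 marks. RNA was not measured, so no level of transcript or protein is given for any of these genes.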

How the data were processed

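Histone marks were measured by ChIP-seq in 20 libraries of a mouse neuroblastoma line, 2 per mark and oxygen level; 4 inputs were not used. Libraries were grouped by the sample titles. Per the submitters' processing notes, BWA, Picard, MACS2 and SICER were used with build mm10, with tool versions not given in the sources used here. Per the file headers, each library had its own peak calls. For H3K4me3, H3K27ac and H3K4me1 the deposited peak scores were read as -log10 q values from their range, and lowest scores lay between 2.01 and 2.11. For H3K36me3 and H3K27me3 the deposited island lists end in an unlabelled column of whole numbers, taken from its values as the authors' read counts per island. The lists hold called regions only, so reads outside islands and input levels are unknown, and a region just under a caller's threshold counts as 0. The intervals of each second library were deposited with the first library and were matched to it by their summits or entries (100% of entries).

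The 10 genes and all lists were chosen with earlier results of these data known. All 10 are named. From each list at most 3 genes per mark and direction are named, ranked by the smallest gap between levels; the 3 genes most like the one with the largest H3K27ac gap are named too, and the ligase and H3K36me3 examples follow the same rule. Gene positions and promoters came from RefSeq tables for GRCm38.p6. Bmal1 was matched as a synonym, and 13 of 14 bHLH-PAS relatives were found.

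Covered length was tested on log2(bp + 1000) with limma 3.58.1 (trend) over genes with a mean of at least 500 bp, which understates ratios at short lengths. Island reads were tested with edgeR 4.0.16 (quasi-likelihood, TMM), with an offset for covered length in regions present in all 4 libraries, or summed over gene records in proportion to overlap for genes with a mean of at least 20 reads, an analysis added after seeing the data. DESeq2 1.42.0 was the alternative, and p-values were Benjamini-Hochberg adjusted over all features with a threshold of 0.05. Genes that passed a filter through 1 level only had to differ, so counts of non-overlapping genes are given over all 10. The scripts were tested on simulated data with 200 changed features: limma recovered 100%, 98.5%, 88.0%, 58.0% and 28.5% of log2 changes of 2 for H3K4me3, H3K27ac, H3K4me1, H3K36me3 and H3K27me3, and edgeR 86.5% and 84.0% of log2 changes of 1 for H3K36me3 and H3K27me3 regions. Simulated libraries varied independently, unlike the real ones. For limma, genes of like length shared a spread, and for edgeR the dispersion was fixed and not taken from the data. These shares therefore check the scripts and do not give the power of the real comparisons.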

Additional observations from a re-analysis of the deposited data

How the results depend on the processing

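Only 2 libraries per level limit every comparison, and peak lists do not show signal below a caller's threshold. Counts of genes passing limma moved for H3K4me3 from 1 to 4 with a pseudocount of 200 bp, 2 with scores of 5 or more, and 0 when centred on the median, with 2 kb flanks or with equal numbers of peaks. DESeq2 called 2 H3K36me3 regions by density and 668 genes by island reads, where edgeR called 0 of each. The cause of these differences was not tested.

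Libraries with the same replicate number deviated together (correlation of deviations between 0.225 and 0.593 over the 5 marks), but nothing in the labels says that they share a culture, so the numbers were not taken as pairs. The replicate number does go with the flow cell, as replicates 1 and 2 never shared one. That difference stays in the spread of the fits without a block. With the replicate number as a block, 8 genes passed for H3K4me3, 194 for H3K27ac and 3242 for H3K4me1. For density the block gave 1163 of 10858 regions for H3K36me3 and 1142 of 10177 for H3K27me3. Limited to regions covered to at least 0.9, without the length offset, it gave 742 of 3677 and 478 of 1129. None of the 10 genes passed limma with the block for any of the 5 marks. Their lowest adjusted p was 0.0588 for H3K4me1 (Hif3a) and 1 for H3K4me3, and for H3K27ac it was 0.068 for Hif3a, 0.0955 for Egln2, 0.114 for Egln1, 0.13 for Egln3 and 0.309 for Vhl. In the regions covered to at least 0.9, with the block and no length offset, H3K36me3 density passed in edgeR at Arnt (adjusted p = 0.0175). It also passed at Egln1 (0.0318), in a region that also spans Gnpat, Exoc8 and Sprtn. H3K27me3 density passed in this setting at Hif3a (4.64e-08). With 742 of 3677 and 478 of 1129 regions passing there, nothing particular to these genes is read from these passes.

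With a smallest gap of 500 bp in place of 200, non-overlapping genes numbered 65 longer and 267 shorter for H3K4me3 (1 and 0 of the 10), 1126 and 215 for H3K27ac, 5 longer for H3K4me1 (3 of the 10 shorter) and 740 longer for H3K36me3. Equal numbers of peaks gave 33 genes with longer H3K4me1 and, as did scores of 5 or more, 0 of the 10 with shorter H3K4me3. With 2 kb flanks, 1057 genes had longer H3K27me3, 1 of the 10 was longer and 1 shorter in H3K27me3, and 1 was shorter in H3K36me3. Starts with H3K4me1 in all libraries fell to 0 of the 10 with a 500-bp window or scores of 5 or more, and those with H3K36me3 to 0 with a 500-bp window. Centring each library on its own median turned the H3K4me1 log2 ratios of Epas1 to 0.43, Hif3a to 0.014, Arnt to 0.345 and Egln3 to 0.37, beside a median over all genes of 0.103, so that Hif3a was below that median.

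Leaving out 1 library at a time, the genes passing limma ranged from 0 to 21 for H3K4me3, 0 to 150 for H3K27ac, 0 to 327 for H3K4me1 and 0 to 692 for H3K27me3, and the regions passing edgeR from 0 to 50 for H3K36me3 and 0 to 128 for H3K27me3. For H3K4me3, non-overlapping genes then ranged from 401 to 3633 longer and 1432 to 6967 shorter, and those of the 10 genes from 2 to 5 and 1 to 4. For H3K27ac, non-overlapping genes then ranged from 2694 to 7260 longer and 822 to 3185 shorter, and those of the 10 genes from 5 to 7 and 0 to 2. For H3K4me1, non-overlapping genes then ranged from 41 to 560 longer and 8627 to 12738 shorter, and those of the 10 genes at 0 and from 6 to 9. For H3K36me3, non-overlapping genes then ranged from 2498 to 3536 longer and 4090 to 5803 shorter, and those of the 10 genes from 3 to 5 and 1 to 2. For H3K27me3, non-overlapping genes then ranged from 2278 to 4136 longer and 734 to 1704 shorter, and those of the 10 genes from 0 to 2 and 1 to 2. With 3 libraries the rule is easier to meet, and the lone library of a level is assumed to vary like the others.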
